A study of Mus musculus with 8 samples.

Results

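Hair shaft keratins are the keratins of the cortex and cuticle of the hair. Acidic type I chains pair with basic type II chains into filaments, and cross-linking of these filaments with keratin-associated proteins through disulfide bonds gives the hair its strength. The genes are switched on as cells leave the hair matrix, and the transcription factors LEF1 and HOXC13 are known regulators of several of them. The 10 genes described here are all those entries of the catalogue named Krt31, Krt32, Krt33a, Krt33b, Krt34, Krt35 and Krt36 (type I) or Krt81, Krt83 and Krt86 (type II). They were chosen by the symbol that the authors had given to each cluster of transcription start sites, out of 16094 genes with at least 1 cluster. All 10 were found, with 57 of the 46376 clusters that carried a gene and of 84475 clusters in all.

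CAGE libraries were prepared from the facial skin of 8 mice of strain C57BL/6, aged 28 days. CAGE sequences the capped 5′ ends of RNA. Lesional skin was taken from 4 mice of genotype Nectin-cre(+);Ikk2FL/FL, that is with both Ikk2 alleles floxed, and non-lesional skin from 4 mice whose genotype is given only as Control. The series title spells the Cre line Nestin-cre. Genotype and lesion change together. Which cells expressed the Cre in facial skin, and whether controls carried floxed alleles, is not stated in the labels. Ikk2 is a kinase that activates NF-κB. The 8 columns of values in the deposited table have names that match no label of a mouse, so they were not used. No level of any keratin, no depth of a library and no difference between lesional and control skin is therefore reported. The results are positions, which describe the series as a whole. The catalogue also held a cluster for every one of the marker genes looked up for other cells of skin, namely 4 of 4 for skeletal muscle, 3 of 3 each for adipocytes, sebocytes, melanocytes and fibroblasts, 4 of 4 for immune cells and 4 of 4 for epidermal keratinocytes. The only cluster of the muscle gene Ckm had also been given to another gene. With 16094 genes in the catalogue, and their share of annotated genes not counted, presence says little about these cells.

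Promoter sequences of 5 of the 10 genes, all of type I, were taken from RefSeq (GRCm38.p6). They are shown because CAGE places starts of these genes, and because the distance of a TATA box to the start can be read from them. Each line gives the 120 bases that end just before the annotated start, 5′ to 3′ on the strand of the gene, with every TATAAA in capitals. All 5 lie on the minus strand.
Krt31, chr11:100050552-100050671: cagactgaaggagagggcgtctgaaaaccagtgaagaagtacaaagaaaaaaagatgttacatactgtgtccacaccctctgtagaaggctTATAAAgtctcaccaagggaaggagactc
Krt32, chr11:100088270-100088389: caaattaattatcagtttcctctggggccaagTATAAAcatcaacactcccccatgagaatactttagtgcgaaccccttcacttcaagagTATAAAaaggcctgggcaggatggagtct
Krt33b, chr11:100029869-100029988: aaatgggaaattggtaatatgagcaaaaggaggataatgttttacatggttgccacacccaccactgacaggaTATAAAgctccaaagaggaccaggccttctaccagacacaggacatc
Krt34, chr11:100041555-100041674: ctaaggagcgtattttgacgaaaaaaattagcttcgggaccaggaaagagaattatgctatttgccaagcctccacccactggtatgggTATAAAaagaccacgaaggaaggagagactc
Krt36, chr11:100105627-100105746: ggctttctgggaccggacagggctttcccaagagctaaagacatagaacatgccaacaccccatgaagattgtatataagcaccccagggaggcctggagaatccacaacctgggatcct

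TATAAA stood in 4 of the 5 promoter windows of 300 bases, searched on both strands, while 13.6% of the 32851 promoters of the table held it. In Krt31 and Krt32 its first base lay 29 bases before the annotated start, in Krt34 31 bases and in Krt33b 47 bases before it. Krt32 held a further copy 88 bases before the start. Krt36 had no TATAAA in its window, but its printed line holds the related run tatataag. Forms of the TATA box other than TATAAA were not searched. CTTTGA, the core bound by LEF1 and its relatives, stood in 4 of the 5 windows (16% of all promoters), again in all but Krt36. It lay 244 bases before the start in Krt31, 247 in Krt32 and in Krt33b, and 240 in Krt34, which held another copy 133 bases before the start. TTTATNGG, a form of the HOXC13 site, stood in Krt31 at 158 bases and in Krt34 at 154 bases before the start, so in 2 of 5 windows (2.75% of all promoters). The form TTAATNGG stood in none of the 5 (1.74% of all promoters). These are matches of letters and not shown to be sites. Over the 120 bases printed, identity between pairs of the 5 promoters ran from 47.3% to 57.8%, highest for Krt31 and Krt34. For scale, the first 100 nt of type I against type II transcripts gave 47.6% to 58.3% with the same alignment settings. The 2 ranges overlap, but the stretches differ in kind and length. Unrelated promoters were not compared, and identity over the whole 120 bases can miss shorter shared stretches. Whether these promoters are alike was therefore not settled by these values.

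In mm9, the build named in the submitters' processing notes, 7 of the genes lay on chromosome 11 and 3 on chromosome 15. All were on the minus strand except Krt86, so 9 of 10. Along chromosome 11 the order was Krt33a, Krt33b, Krt34, Krt31, Krt32, Krt35 and Krt36, and along chromosome 15 it was Krt83, Krt81 and Krt86. The widest cluster of each gene is called its start cluster here, and its span is its end minus its start, with coordinates as deposited. Neighbouring start clusters were between 7974 bp (Krt32 to Krt35) and 37742 bp (Krt31 to Krt32) apart. The same distances between annotated starts in GENCODE M21, measured within GRCm38, differed by 12 to 79 bp over the 8 neighbouring pairs, with the Krt83 entry set against the annotated gene Krt87. Distances were compared only within each build. These differences were smaller than the span of the widest start cluster (184 bp), but some exceeded the narrower start cluster of the pair. Krt35 to Krt36 differed by 58 bp, with a Krt36 start cluster of 7 bp. Krt34 to Krt31 differed by 31 bp, with a Krt34 start cluster of 16 bp.

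The symbol Krt83 needs care. The deposited Krt83 start cluster lay 24895 bp before that of Krt81, on the minus strand. In GENCODE, the gene now called Krt83 lies on the other side of Krt81, beyond Krt86, with its start 27761 bp after that of Krt81. The gene at 24947 bp before Krt81 is Krt87, and RefSeq lists Krt83 as an older symbol of Krt87. The current Krt83 had a counterpart under another name. The entry 5430421N21Rik, a RefSeq synonym of both Krt83 and Krt86, was given to 13 minus-strand clusters between 101317518 and 101321971 of chromosome 15 (mm9). Its upstream edge lay 27721 bp after the Krt81 start, which differs by 40 bp from the annotated Krt83. By order, strand and distance, the rows named Krt83 therefore held the place of Krt87 and those named 5430421N21Rik the place of the current Krt83. No cluster carried the symbol Krt87. Below, Krt83 stands for the rows so named.

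The type I genes of the cortex came first along chromosome 11. Krt33a and Krt33b encode closely related type I chains of the cortex. The Krt33a start cluster ran from 99877480 to 99877559, a span of 79 bp, and that of Krt33b from 99891170 to 99891203, a span of 33 bp. Krt33a had 11 clusters, the highest number in the family, and Krt33b had 5. Krt34, another cortex keratin, had 5 clusters and a start cluster of 16 bp from 99902857 to 99902873. Krt31, one of the main acidic keratins of the cortex, had 6 clusters and a start cluster of 63 bp from 99911838 to 99911901. These 4 genes had narrower start clusters than most genes: 68.4% of all genes with a cluster had a widest cluster at least as wide as that of Krt33a, 85.6% for Krt33b, 89% for Krt34 and 76.8% for Krt31.

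Krt32, a keratin of the hair cuticle in humans, had 5 clusters and a start cluster of 87 bp from 99949556 to 99949643. Krt35, which is expressed early in the lower hair shaft, had 8 clusters and a start cluster of 128 bp from 99957489 to 99957617. That was the widest start cluster among the type I members. Krt36, known in the mouse from hair-related keratinized tissues, stood at the other end. It had 2 clusters, and its start cluster spanned 7 bp, from 99966953 to 99966960. Of all genes with a cluster, 92.8% had a widest cluster at least as wide.

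The start clusters of the type II members spanned 93 to 184 bp. KRT81 and KRT86 are cortex keratins whose mutations cause the hair disorder monilethrix in humans. No role is given here for the rows named Krt83, which lie at the place of Krt87. Krt81 had 7 clusters and a start cluster of 93 bp from 101294157 to 101294250. Krt83 had 4 clusters and a start cluster of 144 bp from 101269211 to 101269355. Krt86 had 4 clusters and a start cluster of 184 bp from 101303898 to 101304082, the widest of the family, and 14.5% of all genes had a widest cluster at least as wide. The range of the 7 type I genes, 7 to 128 bp, overlapped with that of the 3 type II genes, through Krt35 and Krt81.

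**Figure D1:**
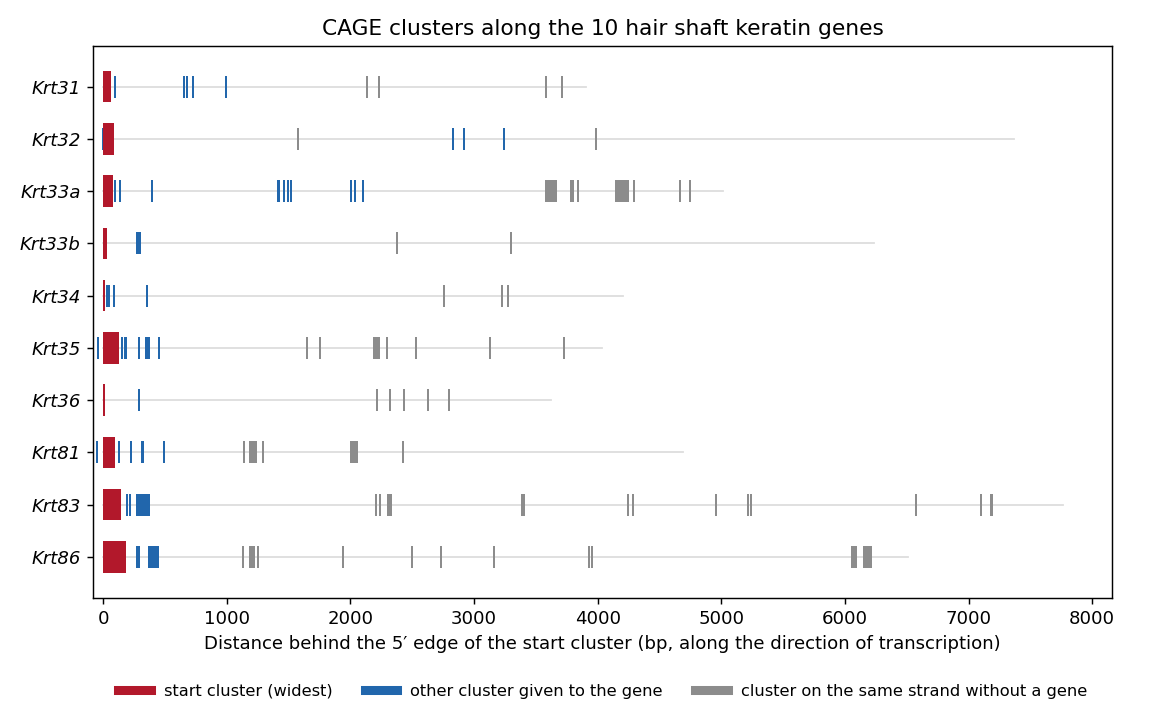
Clusters along the 10 genes, drawn in the direction of transcription; the x axis is the distance behind the 5′ edge of the start cluster (bp), blocks have the span of the cluster, with a fixed line so that the narrowest can be seen, and grey lines give the annotated length in GENCODE (Krt87 for the Krt83 rows). Named clusters gather near the start, except in Krt32 and Krt33a, and clusters without a gene begin 1132 bp or more behind it. The authors' rule for giving symbols is not known, and whether it sets this split was not tested.

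Beyond the 10 start clusters, the family had 47 clusters with its symbols. They were mostly narrow: 40 spanned under 10 bp, 23 had the smallest span of 2 bp, and the median was 3 bp. With start clusters included, 16 of the family's 57 clusters spanned 10 bp or more. The same held for 16 of 69 in inner root sheath keratins, 47 of 140 in epidermal keratins and 24500 of 47524 over all genes. Of the 47, 43 lay behind the start cluster, inside the gene, and 4 lay ahead of it. Those ahead belonged to 4 genes and were close to the start. The 5′ edge of the cluster ahead lay 6 bp from that of the start cluster in Krt32, 42 bp in Krt35, 49 bp in Krt81 and 80 bp in Krt33b. In the other 6 genes the start cluster was the farthest upstream. No cluster of the family had also been given to another gene.

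The 7 named clusters behind the start that spanned 10 bp or more belonged to 5 genes. Krt83 had a cluster of 109 bp from 101268978 to 101269087 and Krt86 one of 92 bp from 101304259 to 101304351, each within the length of the annotated first exon. These began 268 bp and 361 bp behind the start. Krt86 had another of 12 bp. Krt35 had one of 42 bp, 337 bp behind the start and also within the length of exon 1. Krt33a had 2, of 21 bp and 14 bp, at 1410 and 1998 bp. Krt32 had one of 16 bp at 2826 bp behind the start. Krt32 and Krt33a were also the only members with a named cluster more than 991 bp behind the start, up to 3239 bp in Krt32 and 2098 bp in Krt33a.

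**Figure D2:**
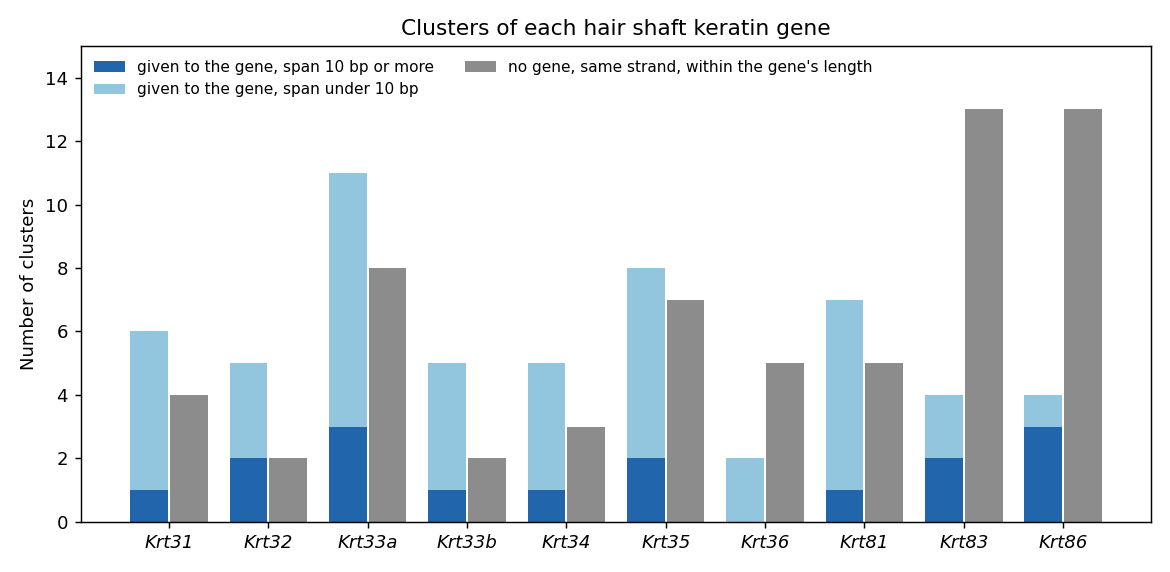
Number of clusters (y axis) of each hair shaft keratin gene (x axis); the blue bars count clusters given to the gene, split at a span of 10 bp, and the grey bars count clusters without a gene on the same strand within the annotated length. Krt33a had the most named clusters (11), while Krt83 and Krt86 had 4 named clusters and 13 without a gene each.

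The symbols did not cover all clusters inside these genes. On the same strand, and within the annotated length behind the start, a further 62 clusters carried no gene. All 10 members had some: 13 each in Krt83 and Krt86, 8 in Krt33a, 7 in Krt35, 5 each in Krt36 and Krt81, 4 in Krt31, 3 in Krt34, and 2 each in Krt32 and Krt33b. The nearest lay 1132 bp behind the start, in Krt86. Which clusters carry a symbol depends on the authors' rule, which is not known, so named counts per gene depend on it too. Counting them raised the family from 57 to 119 clusters and put Krt33a (19), Krt83 (17), Krt86 (17) and Krt35 (15) at the head. Most were narrow, but 12 spanned 10 bp or more. Krt33a held the widest, of 113 bp from 99873309 to 99873422 and of 101 bp from 99873885 to 99873986, both wider than its start cluster. Krt86 held one of 68 bp from 101310047 to 101310115, within the length of its last annotated exon, exon 9. Krt81 held 2 of 65 bp, Krt35 one of 55 bp, Krt86 another of 51 bp, and Krt83 clusters of 36 and 31 bp. In Krt36 none spanned more than 4 bp.

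Clusters behind the start lay within exons more often than the exons' share of the length. Expressed as distances from the start, 79 of 105 clusters (75.2%) had their midpoint within an exon of the GENCODE transcript, whereas exons made up 33.5% of the length behind the start clusters. The 105 are the 43 named and 62 unnamed clusters, and clusters of 1 gene are not independent. Many of the named clusters lay in the first exon close to the start, so the exons' share of the whole length is an uneven measure for them. In Krt33a, the clusters of 101 and 113 bp fell within exon 4 and exon 6. In Krt83 (set against Krt87) a number of clusters fell in introns, among them that of 31 bp. This placement uses mm9 distances with exon lengths from GRCm38, so it is approximate by the width of the start cluster or more. Whether these clusters mark starts of separate transcripts was not tested.

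On the opposite strand, 1 cluster lay inside a member, in Krt35. Ahead of the start, the nearest cluster on the opposite strand was 1499 bp away for Krt31, where it belonged to Gm11571, and 2126 bp away for Krt32, where it carried no gene. For the other 8 genes the gap was 5463 bp (Krt81) or more.

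Related copies can share reads, so transcripts of the members were compared, with Krt87 and the current Krt83 both included. Type I transcripts were 66.1% to 81.2% identical over 21 pairs and type II transcripts 69.1% to 83.6% over 6 pairs, against 48% to 56.6% between the types over 28 pairs. Krt31, Krt33a, Krt33b and Krt34 formed the closest type I set, with 80% to 81.2% in every pair. CAGE tags come from the 5′ end, and over the first 100 nt the median was 52.6% for type I and 51.9% for type II pairs. Between the types it was 53.5%. The ends were cut at annotated starts and aligned over their whole length, so a shared stretch that is shifted can be missed. The medians therefore do not show how alike the ends within a type are. Between the types, the longest unbroken shared run in the first 100 nt was 10 nt. Krt31 and Krt33a were 84.6% identical there, the highest of all pairs, with an unbroken shared run of 29 nt. Krt33a and Krt33b were 56.5% identical but shared a run of 49 nt, the longest of all pairs. Krt31 and Krt33b shared a run of 25 nt, and Krt81 and Krt87 one of 20 nt. The sources used here give neither the length of the tags nor the treatment of tags with several places. The clusters of genes with such shared runs, Krt31, Krt33a and Krt33b among them, are therefore uncertain in this respect. Many clusters lay farther behind the start, beyond these 100 nt, where these values do not apply. For those, identity over whole transcripts is the nearer measure, so clusters of Krt34 and of the type II genes are uncertain too.

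The order of the family among keratins in clusters per gene depended on how clusters were counted. With all clusters, the median was 5 clusters per member (range 2 to 11). It was 7 for 7 inner root sheath keratins, 13.5 for 10 epidermal keratins, 9 for the companion layer genes Krt75 and Krt6a, and 2 over all 16094 genes. For 5 other hair-related keratins with a cluster it was 3. At least 5 clusters were found for 7 of the 10 members (70%) and for 20% of the other hair-related keratins. The share was 71.4% for the inner root sheath keratins, 90% for the epidermal keratins and 18.3% for all genes. With clusters of 10 bp or more, the medians were 1.5 for the members, 2 for inner root sheath keratins and 4 for epidermal keratins. They were 1 for other hair-related keratins and 1 for all genes. With clusters within 100 bp joined, the order turned, to a median of 2 for the members against 1 for inner root sheath keratins, 1 for epidermal keratins and 1 for all genes. The companion layer genes then stood at 2.5 and the other hair-related keratins at 3, both above the members. No test was made of these differences, as the genes were chosen with earlier results known. Of the other hair-related keratins, Krt39 had 4 clusters, Krt40 3, Krt84 3 and Krt82 1, while Krt80, which is also expressed in other epithelia, had 22. This group is not complete, as the hair keratin Krt85 is not included. Krt72, listed with the inner root sheath keratins, had no cluster. The group called epidermal keratins held Krt1, Krt2, Krt5, Krt10, Krt14, Krt15, Krt77, Krt6b, Krt16 and Krt17. It was not limited to keratins of the epidermis between hair follicles.

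The median start cluster of the family spanned 83 bp, against 110 bp for the widest cluster of all genes. It was 120 bp for inner root sheath keratins, 149.5 bp for epidermal keratins, 60.5 bp for companion layer genes and 55 bp for other hair-related keratins. Start clusters of the members ranged from 7 to 184 bp and overlapped with every other keratin group. A span of at least 10 bp was reached by 9 of 10 members, the exception being Krt36, and by 91.2% of all genes.

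**Figure D3:**
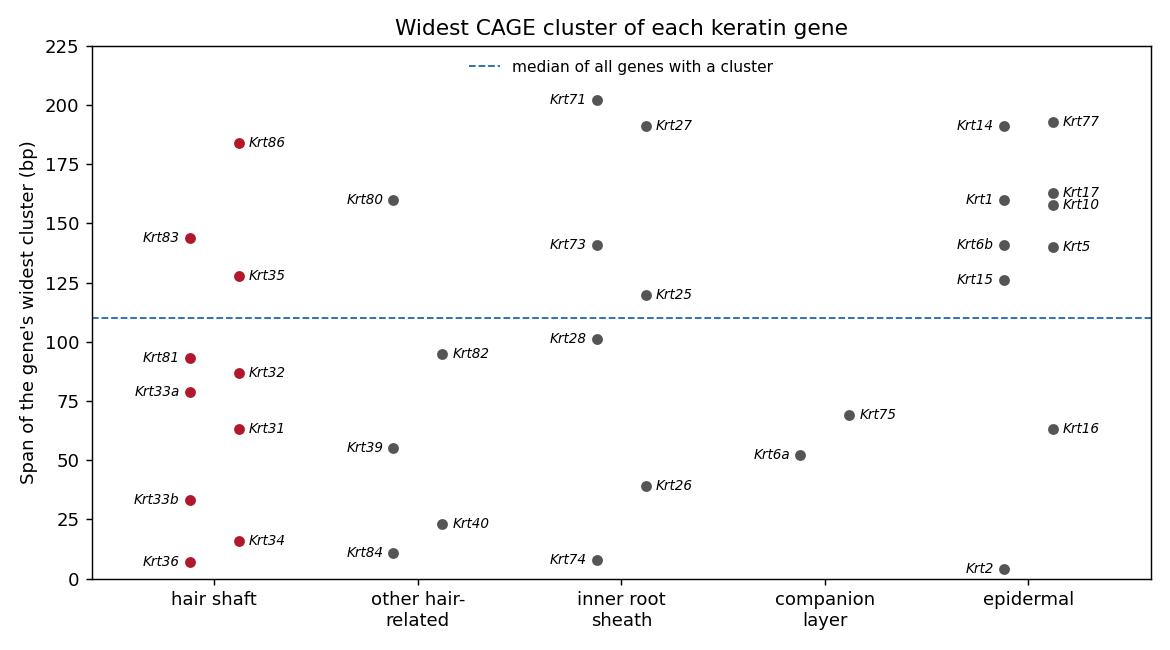
Span of the widest cluster (y axis, bp, from 0) of each keratin gene by group (x axis), with hair shaft keratins in red and the median of all genes with a cluster (110 bp) as a dashed line. Of the 10 hair shaft keratins, Krt86, Krt83 and Krt35 lie above that line and the other 7 below it.

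The genes looked up for the hair shaft that are not keratins were all in the catalogue of 16094 genes, 10 of 10. What share of all annotated genes had a cluster was not counted. Among transcription factors of the hair matrix and shaft, Dlx3 had 19 clusters, Lef1 had 14, Hoxc13 had 10, Msx2 had 9 and Foxn1 had 4. Hoxc13, whose product binds hair keratin promoters, had a widest cluster of 189 bp and Foxn1, the gene altered in nude mice, one of 188 bp. Dsg4, a desmosomal cadherin of the hair, had 2 clusters with the widest at 173 bp. Padi3, an enzyme that converts arginine to citrulline in hair proteins, had 6 clusters, and S100a3, a calcium-binding protein of the hair cuticle, had 4. Tchh, the gene of trichohyalin, had 2 clusters, the wider one of 4 bp, close to the 7 bp of Krt36. Vsig8 had 1 cluster, of 148 bp. The median widest cluster of these 10 genes was 151.5 bp, against the 83 bp of the keratins.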

How the data were processed

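Each row of the deposited table is a CAGE tag cluster, repeated where several genes were given to it. The cluster column, made by the authors, gives the position as chromosome, start, end and strand joined in a text, with a gene symbol or a dot beside it. The submitters' processing notes name BWA, HISAT2 and the build mm9, with no version. The rule for clusters, for symbols and for the base of the first coordinate is not given in the sources used here. The 8 columns of values were not used, because their names match no label of a sample. The planned tests of lesional against control skin, at genes, clusters and members, and the levels over libraries were therefore not run, and neither was the comparison of proteins, for which no sequence was at hand. Library depth was not analysed here.

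Rows of identical position made 1 cluster. A gene's widest cluster was taken as its start cluster. Symbols were matched to RefSeq (10 of 10 members) and to GENCODE M21 (GRCm38), used for order, distances and exon lengths of the longest protein-coding transcript, and no coordinate was converted. Transcripts and promoters were aligned globally with Biopython 1.88 (match 1, mismatch -1, gap opening -2, extension -0.5). Motifs were searched in RefSeq windows of 250 bases before and 50 after the start. Cluster counting was tested on simulated data. Python 3.11.15 and pandas 2.3.3 were used. The members and lists were chosen with earlier results of these data known. The genes named are the members and the listed hair, keratin and marker genes, with 5430421N21Rik and Gm11571 chosen after the catalogue was seen, as were the use of the start cluster and of exon lengths.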

Additional observations from a re-analysis of the deposited data

How the results depend on the processing

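Cluster counts of the family rested on narrow clusters. Keeping those of 10 bp or more left 16 in place of 57, with a median of 1.5 per gene in place of 5. The same cut left 16 of 69 clusters for inner root sheath, 8 of 33 for other hair-related and 47 of 140 for epidermal keratins. Over all genes it left 24500 of 47524, counted once per gene given. Joining clusters within 100 bp of each other gave 21 clusters and a median of 2, then above the 1 of inner root sheath and of epidermal keratins, whereas with all clusters the family lay below both. Against the other hair-related keratins, with a median of 3 both ways, the family went from above to below. Under each of these settings the count moved by over 1.5 times in 9 of the 10 genes. Leaving out clusters given to more than 1 gene changed none. Motif counts were the same with the part before the start alone. Clusters behind the start in exons numbered 73 of 105 (69.5%) in place of 79 when distances began at the 3′ edge of the start cluster, an alternative chosen after seeing the data. No paired analysis was possible because no column of values carries a mouse's name, so that no replicate number can be tied to one. Settings that need values, such as other normalizations or leaving out a mouse, were not run. What depth limits was not analysed here.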
